A study of Mus musculus with 11 samples.

Results

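The genes described here are those that interferons switch on, the transcription factors that carry the interferon signal, and the genes of the mouse major histocompatibility complex (MHC, named H2 in the mouse), measured in 3T3-L1 cells after 3 antidiabetic drugs. They were taken by symbol: Ifi followed by a digit, Ifit, Gbp, Irf and Stat followed by a digit, Oas, H2-, Psmb8, Psmb9, Psmb10, Tap1, Tap2, Isg15, Mx1 and Mx2, leaving out the Irf2bp genes, each from probe sets annotated to a single gene. This gave 70 of the 8251 genes that the array names singly, by 87 of its 10833 probe sets with 1 gene (12422 probe sets in all). A probe set is a group of short oligonucleotides that together report 1 transcript. Of the genes, 57 have 1 probe set and 13 have several, which are told apart below by their mean vehicle signal. The Ifitm genes entered through the letters they share with Ifit. RefSeq lists 8 of the 70 genes as pseudogenes, and these are kept in the counts and medians below.

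Total RNA was measured on 11 one-colour arrays, 1 per sample. 3T3-L1 cells come from mouse embryo fibroblasts and can become adipocytes; whether that was done here is not stated in the labels. All groups were treated for 24 h: vehicle was 0.1% DMSO (3 arrays), and the drugs were 20 µM pioglitazone (2 arrays), 1 µM rosiglitazone (3 arrays) and 20 µM troglitazone (3 arrays). The arrays fall into 2 sets by their titles: replicates 1 and 2 of every group make up set 1, and replicate 4 of vehicle, rosiglitazone and troglitazone makes up set 2. The labels do not say whether replicates are separate cultures, so the p-values measure only the spread between these samples. All 3 compounds are thiazolidinediones, which bind and activate PPARγ, the master regulator of adipocytes. Troglitazone ends in a chroman, the ring system found in vitamin E, and the other drugs end in a pyridine ring.

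Interferons are secreted proteins that bind receptors on the cell surface, activate JAK kinases and, through them, STAT transcription factors. Type I interferons act mainly through the interferon-stimulated response element (ISRE) in promoters, and interferon gamma mainly through the gamma-activated site (GAS). The induced proteins include antiviral effectors and the machinery of MHC class I, which shows peptides cut by the immunoproteasome and carried into the endoplasmic reticulum by the TAP transporter. Class I is made by most cell types, adipocytes among them, while class II belongs mainly to dendritic cells, macrophages and B cells.

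The core of the ISRE, a pair of TTTC blocks 2 bases apart, was looked for in the RefSeq promoter windows of the members (GRCm38.p6, 250 bases before and 50 after the start). The letters searched were TTTCNNTTTC and, for the other strand, GAAANNGAAA, with overlapping matches allowed. Stretches are printed below from the 6 named members whose window holds this motif, whether or not they passed a test. They run 5′ to 3′ on the gene's strand, with the matches in capitals.
Ifitm3 (chr7:141010716-141010742, minus strand, 3 to 29 bases into the transcript): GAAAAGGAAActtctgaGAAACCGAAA
Isg15 (chr4:156200855-156200916, minus strand): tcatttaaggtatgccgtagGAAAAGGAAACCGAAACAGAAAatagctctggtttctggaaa
Ifit3 (chr19:34583353-34583436, plus strand): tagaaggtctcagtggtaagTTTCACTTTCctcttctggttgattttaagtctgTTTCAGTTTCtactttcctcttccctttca
Ifi207 (chr1:173741821-173741870, minus strand): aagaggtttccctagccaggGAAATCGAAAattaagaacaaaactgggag
Gbp2 (chr3:142620584-142620633, plus strand): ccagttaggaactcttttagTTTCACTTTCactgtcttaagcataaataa
Gbp2b (chr3:142594690-142594739, plus strand): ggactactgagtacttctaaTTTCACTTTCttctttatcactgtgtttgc

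Isg15 held 3 matches that overlap in a single run, and Ifit3 and Ifitm3 held 2 each. Of the 70 genes, 54 had a window, 67 windows in all, and 12 windows of 12 genes held the core (17.9%), against 1131 of all 32851 windows (3.44%). The matches lay in 6 of 10 antiviral effector genes with a window (Ifit1, Ifit3, Ifitm2, Ifitm3, Isg15 and Oas1g), in 4 of 4 guanylate-binding protein genes, and in Ifi207 and Stat4. None lay in the windows of 9 class I, 8 class II, 7 IRF and 4 antigen processing genes. Ifi204, which passed a test below, had no window and was not searched. The GAS letters, TTCNNNGAA, which read the same on both strands, were in 11 windows (16.4%) of 11 genes, Irf1 and Irf8 among them, against 2726 of all windows (8.3%). In Ifitm3 the GAS match, at bases 14 to 22, overlaps the second of the ISRE matches, at 20 to 29, and lies clear of the first, at 3 to 12. A match is a description of letters and was not tested as a binding site.

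Signals are on a linear scale that the authors had already set to a common trimmed mean. A floor of 73.7, the 25th percentile of all values, was applied before taking log2, and 86 members above it on at least 2 arrays were tested; the class II gene H2-Eb2 was at or below it on all 11 arrays. The members' median vehicle signal was 219.9, against 212 for all probe sets; 34 of 87 (39.1%) lay above the floor on every array, against 45.8% of all. Rosiglitazone replicate 2 correlated least with the other arrays (median 0.833, against up to 0.896), and pioglitazone replicate 2 had the highest 3′ to 5′ ratio of the actin control, 4.86, where set 1 had a median of 2.09 and set 2 one of 3.79. Of 10 adipocyte markers, 8 were on the array and lay above the floor on all 11 arrays, with Adipoq, which encodes adiponectin, between 28109 and 50833. Among these 8, Pparg, which encodes the drugs' receptor, fell with pioglitazone, rosiglitazone and troglitazone (log2 fold changes -1.93, -1.43 and -1.89), the hormone gene Retn fell with rosiglitazone (-0.84) and troglitazone (-1.68), and Cidec, a lipid droplet protein, rose with each (1.43, 1.16 and 1.07), while the other 5 did not pass. Of 6 preadipocyte or fibroblast markers, 2 passed lower with troglitazone and 2 with the average of the 3 drugs. None passed with pioglitazone or rosiglitazone. Their median log2 fold changes were -1.06 with pioglitazone, -0.68 with rosiglitazone and -0.79 with troglitazone. Their summed signal was 6108 to 7218 with vehicle, 3088 to 3939.5 with pioglitazone, 3867 to 4367 with rosiglitazone and 3018 to 3969.8 with troglitazone. That of 9 macrophage markers overlapped between groups, at 2252 to 4359.6 with vehicle, 2975 to 4694 with pioglitazone, 1535 to 4359.5 with rosiglitazone and 1610.0 to 3661 with troglitazone. Only Csf1r and Cd14 of these macrophage markers were above the floor on all arrays, Itgam and Lyz2 were above it on at most 1, and 7 were tested. With troglitazone Cd14 fell (log2 fold change -1.49, limma adjusted p = 0.0246), and the other 6 did not pass. Of these, Fcgr1 (0.42), Cd68 (0.33) and Csf1r (0.06) were above 0, and Adgre1, Ptprc and Mrc1 were below it. The median over the 7 was -0.21. The part of these shifts in the results below was not tested.

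With rosiglitazone (1 µM) 1 member fell past the test and none rose: Ifitm3, a membrane protein that blocks virus entry, was lower 2.53-fold. That is 1 of 86 tested members, beside 1.35% of all 11739 tested probe sets called in either direction, 0.571% lower and 0.784% higher. Without the adjustment 11 members had p under 0.05, 9 lower and 2 higher (Ifitm1 and H2-M9), beside 10.5% of all probe sets and 5.35% lower. The median log2 fold change was -0.15 over members and close to 0 over all probe sets. On 10 members (11.6%, against 6.01% of all) every rosiglitazone array lay under every vehicle array: Ifit1, Ifit3, Ifitm3, Mx2, Gbp3, both brighter probe sets of Ifi204, Tap2, the dimmest of H2-K1, and H2-Q1. Only 3 (3.49%, against 4.78%) lay wholly above: H2-M9, the dimmer probe set of H2-DMa, and H2-Oa.

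With troglitazone (20 µM) 2 members fell and none rose. Ifitm3 fell 2.19-fold, and the brightest probe set of Ifi204, a DNA-binding protein, fell 4.39-fold; among all probe sets 1.33% were called, 0.554% lower and 0.775% higher. Unadjusted, 11 members had p under 0.05 and all 11 were lower, beside 8.32% of all probe sets and 4.3% lower. The median was -0.14 over members and -0.03 over all. The arrays lay wholly under vehicle in 9 members (10.5%, against 6.07%), namely the dimmer probe set of Stat5a, 1 of the 2 of Irf7, Ifit3, Ifitm3, Isg15, Gbp7, the brightest of Ifi204, Ifi207 and the brighter of Tap1, and wholly above in 1 (1.16%, against 4.77%), the second probe set of H2-D1.

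With pioglitazone (20 µM, 2 arrays) no member passed the limma test, where 0.903% of all probe sets were called, 0.273% lower and 0.63% higher. At an unadjusted p under 0.05 there were 5 members, 1 higher (Gbp2b) and 4 lower (Ifitm3, Gbp2, Psmb9 and the dimmest H2-K1 probe set), beside 9.85% of all probe sets and 5.01% lower. The members' median of -0.13 was near that of all probe sets, -0.08. With only 2 arrays to compare, 8 members lay wholly under vehicle (9.3%, against 10.3% of all) and 7 wholly above (8.14%, against 9.07%). For a typical member the 95% interval extended 1.28 log2 units on either side with pioglitazone and 1.11 with rosiglitazone or troglitazone, so smaller differences were within its error. The drugs were compared with the same vehicle arrays, so their values are not independent of one another. When the 3 drugs were averaged against vehicle, Ifitm3 alone of the members passed (log2 fold change -1.03 ± 0.19 SE, limma adjusted p = 0.00637), beside 2.14% of all probe sets (0.86% lower). At an unadjusted p under 0.05 there were 11 members, all lower, beside 10.5% of all probe sets and 5.67% lower. Set 2 has 1 array a group, and a limma test of the difference in response between sets called 0 of all 11739 probe sets, so it cannot show that the sets agree; unadjusted, 1 member had p under 0.05 with rosiglitazone (beside 3.72% of all) and 3 with troglitazone (beside 2.45%).

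**Figure D1:**
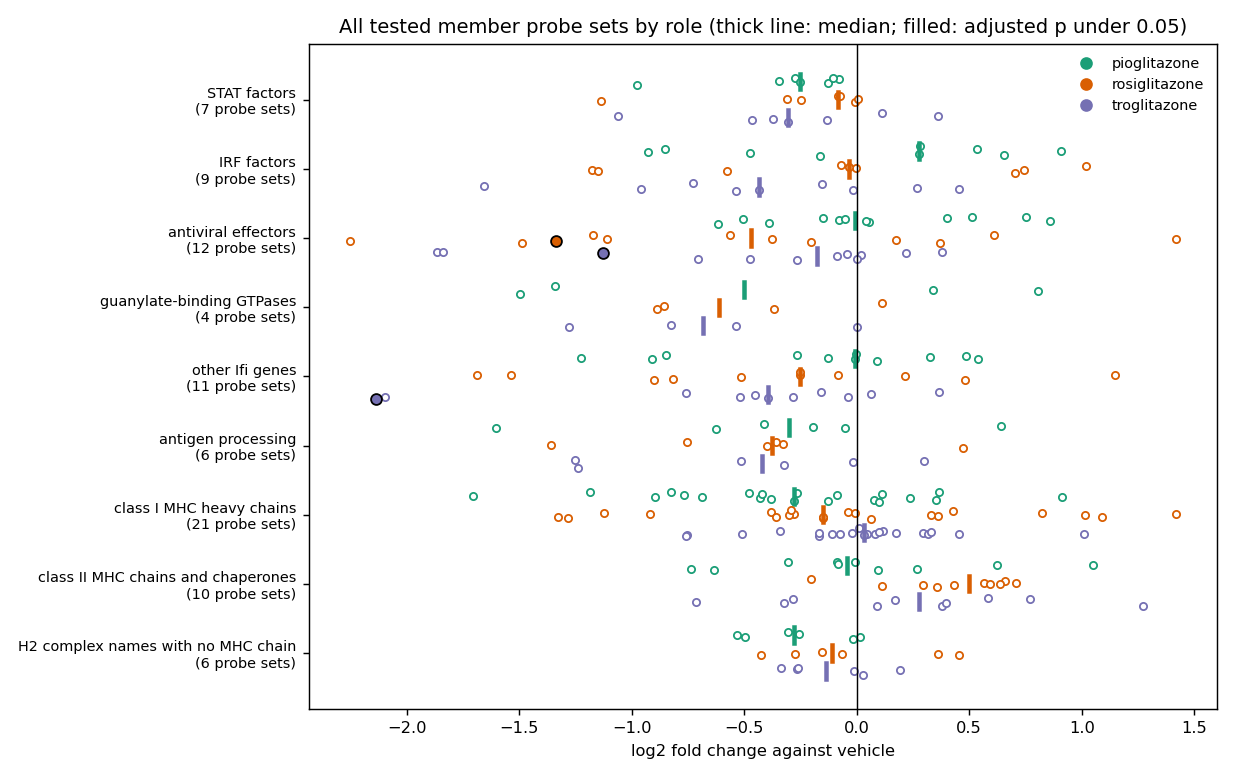
Log2 fold change against vehicle (horizontal axis) of all 86 tested member probe sets, 1 point each, by role and drug. Thick lines are medians and filled points passed at an adjusted p under 0.05: Ifitm3 with rosiglitazone and troglitazone and Ifi204 with troglitazone, while antiviral effectors and other Ifi genes spread far to the left and class II genes lie mostly right of 0 with rosiglitazone and troglitazone.

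Among the antiviral effectors, 12 probe sets of 12 genes, Ifitm3 was the brightest. Its signal was 2325, 1896 and 2530.2 in vehicle replicates 1, 2 and 4, the order used throughout, 1878 and 1049.6 with pioglitazone, 807, 887 and 964 with rosiglitazone and 1098, 936 and 1039.6 with troglitazone. All 3 rosiglitazone and all 3 troglitazone arrays lay under the lowest vehicle array by a wide margin, while of the pioglitazone arrays 1 lay just under it and 1 near the other drugs. In bulk RNA, fewer cells making a transcript and less transcript per cell cannot be told apart. The log2 fold change was -1.34 ± 0.22 with rosiglitazone (SE, n = 3 against 3, limma adjusted p = 0.00533). With troglitazone it was -1.13 ± 0.22 (n = 3 against 3, limma adjusted p = 0.0167). With pioglitazone it was -0.62 ± 0.26 (n = 2 against 3, limma adjusted p = 0.424), which did not pass. By set, they were -1.31 and -1.39 with rosiglitazone and -1.05 and -1.28 with troglitazone in sets 1 and 2. Leaving out vehicle replicate 1 ended the rosiglitazone call (adjusted p = 0.0506) and so did leaving out replicate 4 (0.064); the same arrays ended that of the drug mean (0.0855 and 0.0754). The troglitazone call was lost when any 1 vehicle or troglitazone array was left out, with adjusted p up to 0.153.

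Ifit3, an RNA-binding antiviral protein, had signals of 472, 508 and 350.2 with vehicle and 456 and 377 with pioglitazone, but 88.1, 119.7 and 70.6 with rosiglitazone and 91.0, 101 and 188 with troglitazone. The vehicle and pioglitazone arrays overlapped, and every array of the other drugs lay under them. The log2 difference from vehicle was -2.25 ± 0.55 with rosiglitazone (limma adjusted p = 0.0611) and -1.87 ± 0.55 with troglitazone (adjusted p = 0.164); neither passed. By set, 1 then 2, these differences were -2.25 and -2.25 with rosiglitazone and -2.35 and -0.90 with troglitazone. Isg15, a ubiquitin-like protein joined to other proteins in infected cells, showed a like order. Its signal was 501, 662 and 692 with vehicle, 441 and 510.4 with pioglitazone, 119.9, 165 and 525 with rosiglitazone and 142, 103 and 342 with troglitazone. The set 1 arrays of rosiglitazone and troglitazone were low, and their set 2 arrays were higher, that of rosiglitazone within the vehicle range. The log2 difference was -1.84 ± 0.46 with troglitazone (limma adjusted p = 0.0766), -2.25 in set 1 and -1.02 in set 2. With rosiglitazone it was -1.49 ± 0.46 (adjusted p = 0.183), -2.03 in set 1 and -0.40 in set 2. With pioglitazone the values were -0.08 for Ifit3 and 0.04 for Isg15.

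The remaining 9 antiviral effectors were dimmer or more scattered. Ifit1, another RNA-binding effector, was lower on every rosiglitazone array but did not pass (59.0, 65.8 and 29.7, against 378, 84.5 and 144 with vehicle). Mx2, an antiviral GTPase that many laboratory strains cannot make and RefSeq lists as a pseudogene, was wholly above vehicle with pioglitazone (592 and 377, against 242, 234 and 295) and wholly below it with rosiglitazone (168, 41.9 and 134). Ifitm1, a relative of Ifitm3, had the opposite sign: its rosiglitazone signals were 329, 352 and 114, against 74.9, 125 and 42.3 with vehicle, overlapping groups with a log2 difference of 1.42 (limma adjusted p = 0.369). Over the 12 probe sets the median log2 fold change was -0.01 with pioglitazone, -0.47 with rosiglitazone and -0.18 with troglitazone. Over the main setting and 6 others (2 scalings, 2 floors, an added constant and no filter) these medians ran -0.06 to 0.16, -0.80 to -0.35 and -0.57 to 0.00, so that the sign held with rosiglitazone only.

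**Figure D2:**
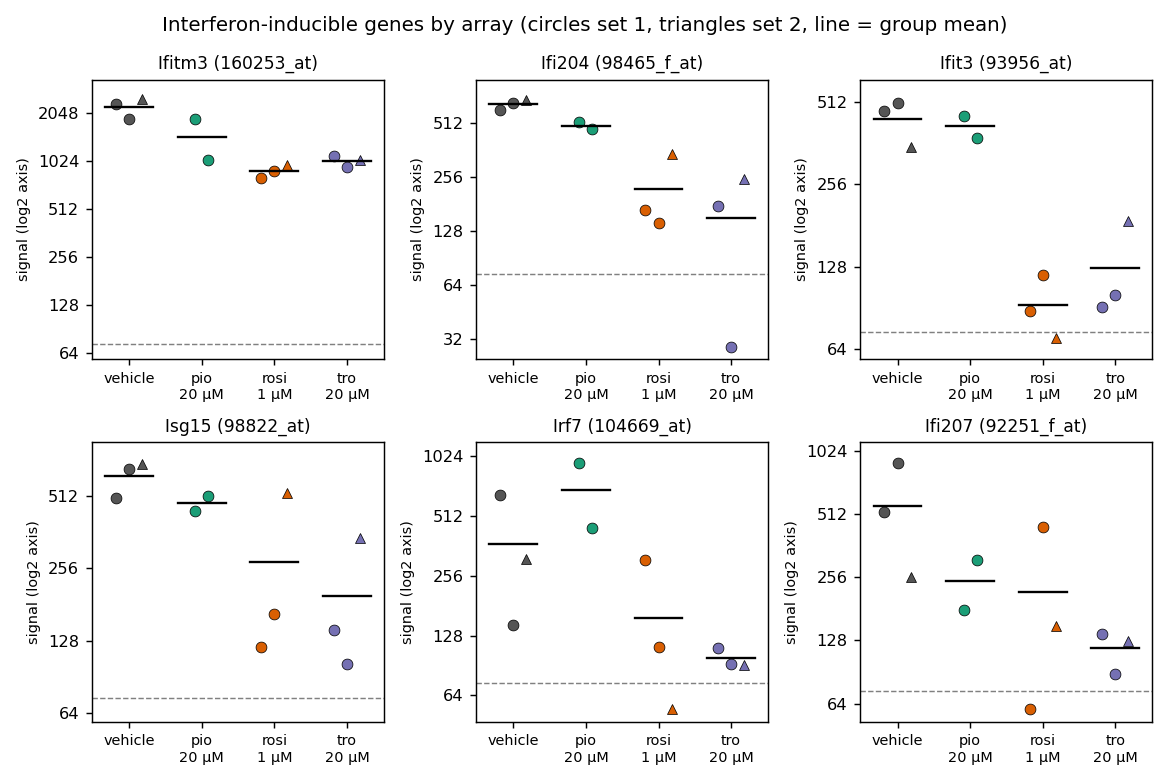
Signal on each array (vertical log2 axis) of 6 interferon-inducible genes by group, with the floor of 73.7 as a dashed line. Bars are group means, circles set 1 and triangles set 2. Ifitm3, the brightest probe set of Ifi204, and Ifit3 lie low on every rosiglitazone and troglitazone array. Isg15 does so on all of them but the set 2 array of rosiglitazone.

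Among the other Ifi genes, 11 probe sets of 9 genes, Ifi204 belongs to a cluster of DNA-binding proteins on chromosome 1 that take part in sensing foreign DNA and in growth control. Its brightest probe set gave 601, 657 and 689 with vehicle, 514 and 472 with pioglitazone, 168, 140.5 and 344 with rosiglitazone and 175, 28.9 and 248 with troglitazone. Vehicle and pioglitazone were tight and high, the other drugs were lower on every array, and troglitazone replicate 2 was under the floor. The log2 fold change was -2.14 ± 0.47 with troglitazone (SE, n = 3 against 3, limma adjusted p = 0.0384), -2.47 in set 1 and -1.47 in set 2. It was -1.69 ± 0.47 with rosiglitazone (adjusted p = 0.125) and -0.13 ± 0.55 with pioglitazone (adjusted p = 0.979), neither past the test. The troglitazone call held in 1 of 11 fits that left out an array, that without rosiglitazone replicate 2, with adjusted p from 0.0449 to 0.224 over the 11.

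The other probe sets of Ifi204 disagreed with it. The second read 158, 90.0 and 182 with vehicle, 77.9 and 76.7 with pioglitazone, 33.8, 35.0 and 19.4 with rosiglitazone and 109.8, 142 and 45.9 with troglitazone. Here all rosiglitazone arrays were under the floor, which makes the fall at least 1.87-fold (limma adjusted p = 0.357, not past the test), and the troglitazone arrays overlapped vehicle. The third was scattered, from 31.8 to 772, its highest array being rosiglitazone replicate 2. By its type, the brightest probe set can read several genes of a family, so it may take in relatives of Ifi204.

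Ifi207, of the same cluster, gave 524, 896 and 257 with vehicle, 179 and 312 with pioglitazone, 60.0, 443 and 151 with rosiglitazone and 137, 88.2 and 127 with troglitazone. Only the troglitazone arrays lay wholly under vehicle (-2.10 ± 0.68, limma adjusted p = 0.249), and this too did not pass. The Ifi207 probe set is also of the type that can read several genes of a family. Ifi27, a mitochondrial and nuclear membrane protein and the brightest Ifi gene, was highest on the set 2 array of each group that has one. Its signal was 7103, 7199.7 and 11525 with vehicle, 7206 and 7990.1 with pioglitazone, 6408, 6659 and 11626 with rosiglitazone and 5582, 6441 and 9069 with troglitazone, where the third value is that of set 2. The median of the 11 probe sets was -0.01 with pioglitazone, -0.25 with rosiglitazone and -0.39 with troglitazone, and 0 of the 11 passed with pioglitazone or rosiglitazone. Over the same settings the medians ran -0.06 to 0.07, -0.52 to -0.21 and -0.41 to -0.20, turning above 0 with pioglitazone.

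**Figure D3:**
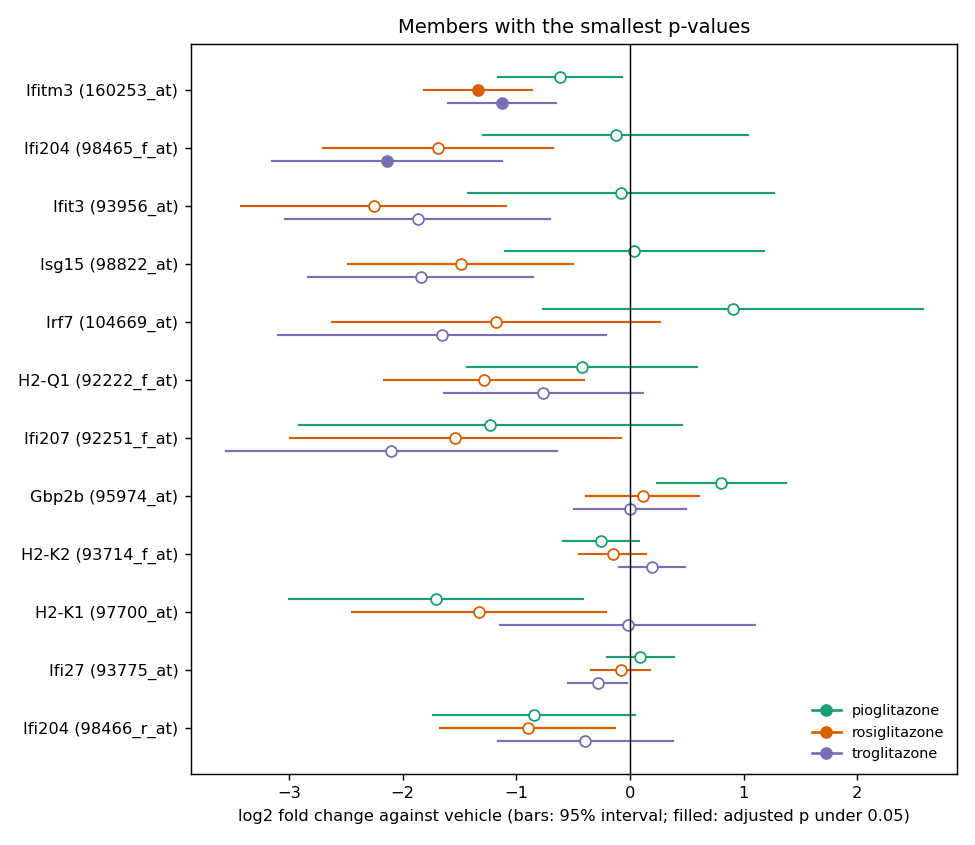
Log2 fold change against vehicle (horizontal axis) with its 95% interval for 12 member probe sets (those that passed, filled up by the smallest p-values), by drug; filled points passed at an adjusted p under 0.05. In Ifitm3, the brightest Ifi204 probe set, Ifit3 and Isg15 the rosiglitazone and troglitazone intervals lie left of 0. Of these 4, only Ifitm3 has a pioglitazone interval left of 0. The second Ifi204 probe set is also among the 12, and its troglitazone arrays overlapped vehicle.

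The guanylate-binding proteins are large GTPases that attack the vacuoles of intracellular pathogens, and their 4 genes had an ISRE core in 4 of 4 windows. None passed with any drug. Gbp2 gave 406, 452 and 246 with vehicle, 60.9 and 282 with pioglitazone, 342, 277 and 221 with rosiglitazone and 219, 341 and 198 with troglitazone, groups that overlapped. Gbp2b was under the floor on all vehicle arrays (39.9, 64.0 and 18.0) and above it on both pioglitazone arrays (118 and 145), at least 1.75-fold higher (limma adjusted p = 0.249). Gbp3 was lower on all rosiglitazone arrays (165, 200.5 and 151, against 360.3, 409 and 215), and Gbp7 on all troglitazone arrays (100.1, 142 and 169, against 368, 173 and 210.5). The median over the 4 was -0.50 with pioglitazone, -0.61 with rosiglitazone and -0.68 with troglitazone, and ran -0.69 to -0.35, -0.63 to -0.37 and -0.68 to -0.49 over the settings.

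Of the factors that carry the signal, no STAT or IRF probe set passed with any drug. Irf7, which drives the second wave of type I interferon genes and is itself interferon-induced, gave 655, 145 and 309 with vehicle and 946 and 444 with pioglitazone. It gave 306, 112 and 54.4 with rosiglitazone and 111, 92.4 and 91.2 with troglitazone. Troglitazone lay wholly under a scattered vehicle group (-1.66 ± 0.68, limma adjusted p = 0.482), and pioglitazone replicate 1 was the highest array of all. The other Irf7 probe set, about as bright, read 95.5, 296 and 232 with troglitazone, which overlapped its vehicle values of 349.7, 514 and 268. Irf1, a factor for class I and immunoproteasome genes, varied little, at 797, 804 and 809 with vehicle, 685 and 847 with pioglitazone, 829, 972 and 638 with rosiglitazone and 716, 831 and 631 with troglitazone. The intervals of its log2 fold changes were -0.74 to 0.42, -0.51 to 0.50 and -0.66 to 0.35 in the same order of drugs. Stat5a, which prolactin and growth hormone activate and which also acts in fat cell formation, was the brightest STAT, at 3365 ± 504 with vehicle (SD, n = 3) and 2599 ± 402 with troglitazone (-0.37, adjusted p = 0.505). The IRF median was 0.28 with pioglitazone, -0.04 with rosiglitazone and -0.44 with troglitazone, and ran 0.07 to 0.41, -0.04 to 0.05 and -0.73 to -0.16 over the settings, turning above 0 with rosiglitazone. The STAT medians were -0.25, -0.08 and -0.31 and ran -0.25 to -0.08, -0.13 to -0.08 and -0.31 to -0.20.

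Antigen processing was represented by the immunoproteasome subunits Psmb8, Psmb9 and Psmb10 and the TAP transporter, and 0 of 6 probe sets passed. Psmb10 was the brightest, at 1439 ± 313 with vehicle (SD, n = 3), 1229 ± 267 with pioglitazone (n = 2), 1134 ± 140.0 with rosiglitazone and 1196 ± 474 with troglitazone (n = 3 each), and the groups overlapped. Psmb8 and Psmb9 lay mostly near the floor. Tap1, 1 of the 2 chains of the transporter, by its brighter probe set read 298, 307 and 365 with vehicle, 104 and 86.8 with pioglitazone, 62.5, 449 and 209.6 with rosiglitazone and 50.1, 164 and 209 with troglitazone. All pioglitazone and troglitazone arrays were under vehicle, and rosiglitazone replicate 2 was the highest of all (-1.60, -0.76 and -1.24, with limma adjusted p = 0.526, 0.74 and 0.694). The other Tap1 probe set gave smaller differences of -0.41, -0.40 and 0.30 in the same order of drugs, with the opposite sign for troglitazone. Tap2, the partner chain, was lower on every rosiglitazone array (175, 73.9 and 106, against 346, 186 and 360.1; -1.36, adjusted p = 0.4). The group's median was -0.30 with pioglitazone, -0.38 with rosiglitazone and -0.42 with troglitazone, and ran -0.43 to -0.19, -0.58 to -0.33 and -0.63 to -0.32 over the settings.

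The class I heavy chains, 21 probe sets of 14 genes, held some of the brightest members, and none passed with any drug. H2-K1, a classical chain that shows peptides to cytotoxic T cells, had signals in its brightest probe set of 6464, 5763 and 4705 with vehicle and 5848 and 4953 with pioglitazone. With rosiglitazone they were 4954, 4431 and 4471 and with troglitazone 6116, 6268 and 5428. The groups overlapped, and the intervals of the log2 fold change were narrow: -0.45 to 0.20 with pioglitazone, -0.56 to 0.00 with rosiglitazone and -0.20 to 0.36 with troglitazone. H2-D1, the other bright classical chain, gave 4398 ± 745 with vehicle (SD, n = 3) and 5443 ± 577 with troglitazone. The dimmest H2-K1 probe set read 358, 243 and 163 with vehicle, 115 and 72.8 with pioglitazone, 107, 113 and 39.4 with rosiglitazone and 399.5, 269.7 and 126 with troglitazone. It was low on all pioglitazone and rosiglitazone arrays (-1.71 and -1.33, limma adjusted p = 0.295 and 0.346), unlike the bright probe set of that gene. By its type, the bright H2-K1 probe set can read several genes of a family, and the dimmest is not of that type. H2-Q1, a non-classical chain, was under the floor on every rosiglitazone array (17.5, 58.5 and 19.2, against 226, 186 and 138 with vehicle), at least 2.43-fold lower (adjusted p = 0.207). Of the 21, 11 are of a type that can read several genes or transcripts, so near-identical chains may share their signal. The class I median was -0.28 with pioglitazone, -0.15 with rosiglitazone and 0.03 with troglitazone, and ran -0.28 to -0.10, -0.15 to -0.05 and -0.00079 to 0.12 over the settings, the lowest troglitazone value, with an added constant, falling just under 0.

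**Figure D4:**
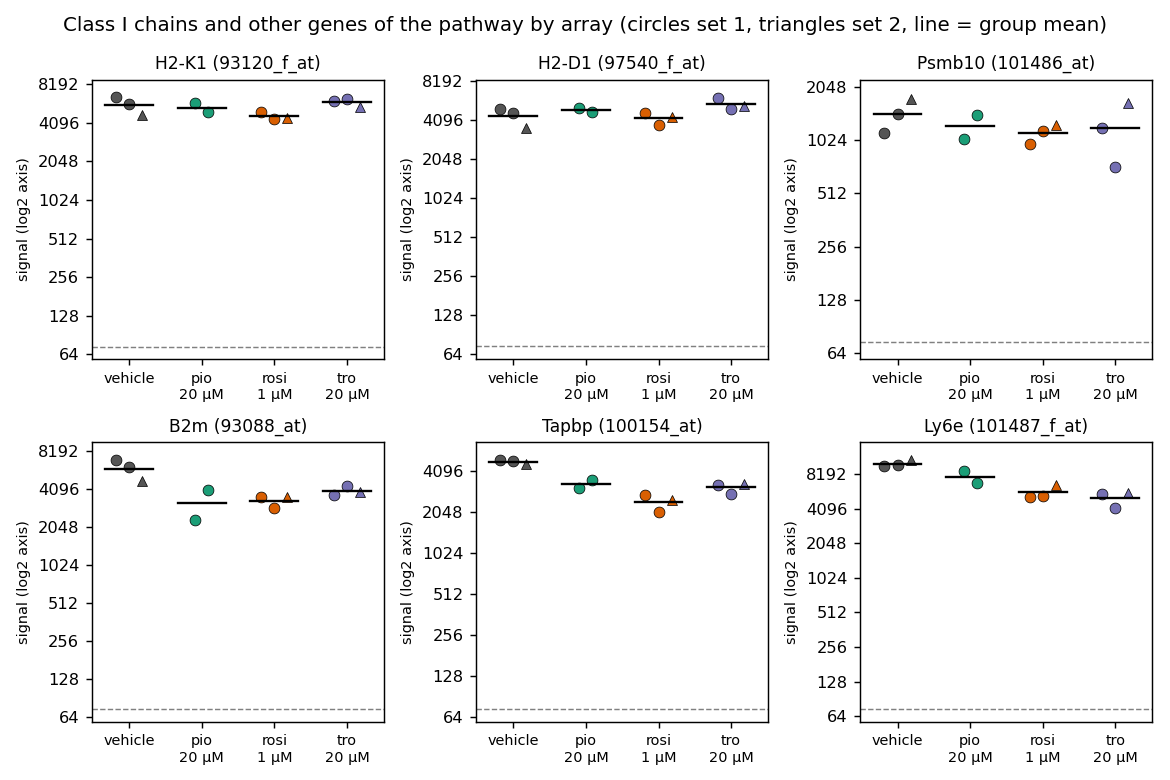
Signal on each array (vertical log2 axis) of 3 members of the class I pathway (H2-K1, H2-D1 and Psmb10) and 3 genes of the wider pathway that passed a test (B2m, Tapbp and Ly6e), by group, with the floor as a dashed line. Bars are group means, circles set 1 and triangles set 2; the drug groups overlap vehicle in the upper row and lie wholly under it in the lower row.

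Class II chains and their chaperones, 11 probe sets of 10 genes, were dim, with 35.5% of values at or below the floor. None of the 10 tested passed. H2-Eb1, the beta chain of a class II molecule and the brightest of the group over all arrays, gave 269, 141 and 102 with vehicle, 495 and 233 with pioglitazone, 288, 129 and 456 with rosiglitazone and 299, 714 and 255 with troglitazone. The drug means were above vehicle but the arrays overlapped for rosiglitazone, pioglitazone and troglitazone alike (1.27 ± 0.63 with troglitazone, limma adjusted p = 0.653). H2-Aa, which pairs with H2-Ab1, did not exceed 139 on any array. The group's median was -0.05 with pioglitazone, 0.50 with rosiglitazone and 0.27 with troglitazone, and ran -0.05 to 0.10, 0.16 to 0.50 and 0.05 to 0.34 over the settings, turning above 0 with pioglitazone. The H2 symbols that name no MHC chain (H2-Ke6, H2-Pa, and the pseudogenes H2-D4 and H2-K2) had 6 probe sets, 0 of which passed. Among them H2-K2 was bright, at 6143 ± 1046 with vehicle (SD, n = 3), and can read class I relatives.

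Troglitazone and pioglitazone were the only pair given at the same dose, 20 µM, and they differ in the chroman or pyridine end. This was the 1 pair compared. No member passed between them in limma, where 0.0341% of all probe sets were called (0.00852% lower and 0.0256% higher); 9 members had an unadjusted p under 0.05, 7 lower and 2 higher with troglitazone, beside 6.35% of all probe sets and 3.16% lower. Isg15 was 3.68-fold lower with troglitazone than with pioglitazone, a log2 difference of -1.88 (95% interval -3.02 to -0.74, adjusted p = 0.423). For the brightest Ifi204 probe set the difference was -2.01 (-3.18 to -0.84, adjusted p = 0.358). Ifit3 differed by -1.79 (-3.14 to -0.44, adjusted p = 0.624), and the first of the Irf7 probe sets described above by -2.56 (-4.23 to -0.89, adjusted p = 0.516). On these 4 probe sets every troglitazone array lay under both pioglitazone arrays. They were named because they passed or had small p-values, and the share of all probe sets that separate so was not counted. The separation is therefore a description that adds nothing to the test. The difference in Ifitm3 was -0.51 (-1.06 to 0.03, adjusted p = 0.833). The dimmest H2-K1 probe set had the opposite sign, at 1.69 (0.39 to 2.98, adjusted p = 0.63), as did H2-K2 (0.45, 0.11 to 0.78, adjusted p = 0.624), while the bright H2-K1 probe set differed by 0.21 (-0.11 to 0.53). A p that misses the threshold does not show that the 2 compounds act alike, and the intervals of the dim members leave room for differences of several fold. Rosiglitazone was given at 1 µM, so its values stand beside those of the others without a test between them.

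The response was also described by the ISRE letters in the promoter windows. The 12 tested probe sets whose gene's window holds the core had a median log2 fold change of -0.27 with pioglitazone, -0.87 with rosiglitazone and -0.94 with troglitazone. The 55 whose window does not hold it had medians of -0.09, -0.04 and -0.02. Ifi204 has no window and is in neither class. Of the 12, 8 were below 0 with pioglitazone, 10 with rosiglitazone and 9 with troglitazone, against 34, 31 and 30 of the 55. Outside the members, 299 probe sets of 234 genes with the core had medians of -0.11, -0.02 and -0.06, beside -0.08, -0.0025 and -0.03 in 7812 probe sets without it. The members with a core included Ifitm3, Ifit3, Isg15 and Ifi207, which were named for their small p-values, so this split is a description without a test.

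**Figure D5:**
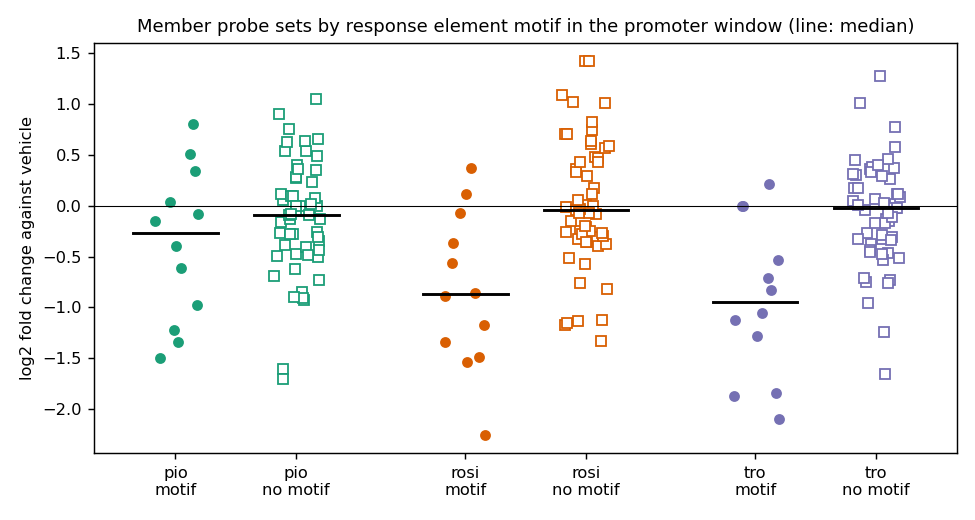
Log2 fold change against vehicle (vertical axis) of 67 tested member probe sets by drug, filled circles where the gene's promoter window holds the ISRE core (12) and open squares where it does not (55), with the median as a line. The 12 reach further down with rosiglitazone and troglitazone, with medians of -0.87 and -0.94, and the 2 classes overlap with every drug.

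The wider pathway was read from a list of 74 genes that are not members, of which 58 were on the array and 57 tested, each by its brightest probe set. None passed higher with any drug. With rosiglitazone 2 passed lower (Ly6e and Tapbp), with troglitazone 1 (Ly6e), with the mean of the drugs 3 (Ly6e, Tapbp and B2m), and 0 with pioglitazone or between troglitazone and pioglitazone. Of all tested probe sets, 0.571% were called lower with rosiglitazone, 0.554% with troglitazone, 0.86% with the mean and 0.273% with pioglitazone. At an unadjusted p under 0.05 there were 1 higher and 6 lower with pioglitazone (beside 9.85% of all probe sets), 3 and 6 with rosiglitazone (10.5%), 0 and 5 with troglitazone (8.32%), 0 and 6 with the mean (10.5%), and 3 and 2 for troglitazone against pioglitazone (6.35%). These shares are for either direction, and the lower part of them was 5.01%, 5.35%, 4.3%, 5.67% and 3.16% in the same order. The list's median log2 fold change was -0.38 with pioglitazone, -0.26 with rosiglitazone and -0.29 with troglitazone, beside -0.08, close to 0 and -0.03 over all probe sets.

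Ly6e, an interferon-induced membrane-anchored protein that restricts coronaviruses, gave 9573, 9807 and 10934 with vehicle, 8773 and 6834 with pioglitazone, 5212, 5287 and 6573 with rosiglitazone and 5539.5, 4183 and 5577 with troglitazone. All drug arrays were under vehicle. It fell by 0.83 ± 0.14 on the log2 scale with rosiglitazone (limma adjusted p = 0.00561) and by 1.00 ± 0.14 with troglitazone (adjusted p = 0.000928), calls that no left-out array ended. By set, 1 then 2, the differences were -0.88 and -0.73 with rosiglitazone and -1.01 and -0.97 with troglitazone. Its dim second probe set gave 0.01 and -0.32 with these drugs and did not pass. By its type, the bright Ly6e probe set can read several genes of a family. Tapbp, the chaperone tapasin that loads peptides on class I, gave 4918, 4906 and 4657 with vehicle, 3083 and 3544 with pioglitazone, 2759, 2062 and 2537 with rosiglitazone and 3243, 2790.1 and 3322 with troglitazone. It too was lower on all 8 drug arrays, and fell by 0.99 ± 0.15 with rosiglitazone (adjusted p = 0.00266); the log2 difference was -0.53 with pioglitazone (adjusted p = 0.241) and -0.63 with troglitazone (adjusted p = 0.0558). Of its other probe sets, 1 also fell with rosiglitazone (-1.11, adjusted p = 0.0387) and 1 did not pass (-0.03). B2m, the light chain of every class I molecule, gave 6914, 6079 and 4698 with vehicle, 2319 and 3981 with pioglitazone, 3505, 2902 and 3524 with rosiglitazone and 3674, 4334 and 3842 with troglitazone. Each drug array lay under vehicle; the mean of the drugs passed (-0.79 ± 0.16, limma adjusted p = 0.0174) and no single drug did (0.0568, 0.0538 and 0.306). It did not hold when vehicle replicate 1 (adjusted p = 0.2) or 2 (0.129) was left out, with median centring (0.068), without the filter (0.115) without the set term (0.0833), with set 1 alone (0.119) or without the intensity trend (0.277). Leaving out either of these vehicle arrays also ended the call of Tapbp with the drug mean (0.0635 and 0.0638), and so did set 1 alone (0.0924) and no intensity trend (0.207). Those settings ended the drug-mean call of Ly6e too (0.0951 and 0.21), as did leaving out the set term (0.0605). With set 1 alone the rosiglitazone calls of Ly6e (adjusted p = 0.145) and Tapbp (0.11) and the troglitazone call of Ly6e (0.0958) were lost, as they were without the intensity trend or in a fit of only the groups compared; that of Ly6e with rosiglitazone was also lost without the set term (0.138) and without the 2 arrays that stand apart, rosiglitazone and pioglitazone replicate 2 (0.0684).

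Upstream genes gave no call. Of 11 listed interferon genes 9 were on the array, and 0 of 8 tested passed; Ifng was above the floor on 1 array. Ifnb1, the main type I interferon of fibroblasts, read 371, 88.8 and 173 with vehicle, 177 and 195 with pioglitazone, 188, 199 and 167 with rosiglitazone and 325, 284 and 153 with troglitazone, all overlapping. None of the 4 receptor chains, 3 JAK kinases, 6 inhibitors and 4 sensors or adaptors passed. Among them Ifnar2, a chain of the type I receptor, was lower on both pioglitazone arrays (46.5 and 192, against 408, 423 and 299.6; log2 -1.74, limma adjusted p = 0.247). Socs1, an inhibitor of JAK kinases, was lower on all rosiglitazone arrays (157, 126 and 62.4, against 199, 779 and 214, log2 -1.50, adjusted p = 0.37). Others of the same lists went the other way. The receptor chain Ifngr2 was higher on both pioglitazone arrays (431.8 and 239.5, against 118.3, 115.5 and 88.4, log2 1.25, limma adjusted p = 0.611). The inhibitor Ptpn2 was higher on all rosiglitazone arrays (173, 303.5 and 183.2, against 61, 86.1 and 36.2, log2 1.45, limma adjusted p = 0.276).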

How the data were processed

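Deposited values are linear intensities, which the authors had put on one scale: between 500.289 and 500.433 was the mean of every array once 2% of values were trimmed from each end. The software, probe summary and build: not given in the sources used here. Values were raised to a floor of 73.7 (25th percentile) and taken to log2; 66 control probe sets were set aside and 11739 probe sets above the floor on 2 or more arrays were tested. limma 3.58.1 (R 4.3.3) fitted group and set to 11 arrays (6 residual degrees of freedom, intensity trend, two-sided), adjusted by Benjamini-Hochberg over all tested probe sets in each of 5 comparisons; "rose", "fell" and "passed" mean an adjusted p under 0.05. The procedure was tested on simulated data for troglitazone against vehicle. It recovered 39% of simulated log2 changes of size 1 and 87% of those of size 2. The changed probe sets had a mean more than 2 log2 units above the floor, and no change was simulated in dimmer ones. Names came from the platform annotation, and all 87 member probe sets matched RefSeq GRCm38.p6, the source of promoter windows.

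Named members passed, or filled up to 12 by the smallest p, were the brightest of a role, or did not overlap vehicle. Ifitm1, H2-D1, H2-Aa and the other probe sets of Irf7, Ifi204 and Tap1 were picked after their values were seen. So were the pathway's Ifnb1, Ifnar2, Ifngr2, Socs1 and Ptpn2. Members and lists were chosen with earlier results of these data known. Alternatives varied scaling, floor, filter, fit and arrays; those for Ly6e, Tapbp, B2m and the several-gene probe set were added after seeing the data.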

Additional observations from a re-analysis of the deposited data

How the results depend on the processing

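Under 23 alternatives (22 for the mean of the drugs, since a fit of only the groups compared is there the full fit), no called member reversed, and the 0 between troglitazone and pioglitazone held in 23 of 23. With pioglitazone the count of 0 became 1 without the filter on dim probe sets (Gbp2b, adjusted p = 0.0478). With rosiglitazone the count of 1 became 2 with a floor at the 50th percentile (Ifi204 added) or an added constant (Ifit3 added, adjusted p = 0.0339), and 0 with set 1 alone, without the intensity trend, or in a fit of only the groups compared; leaving out each array gave 0 to 1. With troglitazone the count of 2 became 1 with quantile normalisation, median centring or without the 2 arrays that stand apart, and 0 without the filter, without the set term, with set 1 alone, without the trend, or in a fit of only the groups compared; it rose to 3 with an added constant (Isg15 added, -1.45, adjusted p = 0.0447), and leaving out each array gave 0 to 2. For the mean of the drugs 1 became 2 with the 50th percentile floor and 0 with set 1 alone or without the trend, and leaving out each array gave 0 to 1. The cause of these changes in count was not tested. Fewer arrays were used with set 1 alone and with an array left out. The same holds without the 2 arrays that stand apart and in a fit of only the groups compared. Calls were also lost with all arrays kept, as without the intensity trend. Across all alternatives the log2 fold change of Ifitm3 ran from -1.44 to -1.27 with rosiglitazone (adjusted p 0.0023 to 0.186) and from -1.23 to -1.02 with troglitazone (0.00544 to 0.371), and that of Ifi204 with troglitazone from -2.53 to -1.56 (0.0172 to 0.272).

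With replicate numbers as a block the counts were 0, 1, 2, 1 and 0 for pioglitazone, rosiglitazone, troglitazone, their mean and troglitazone against pioglitazone, with the same genes called. The numbers share only a name within set 1: deviations of same-numbered arrays, compared there over 6 pairs, correlated between -0.0444 and 0.00994.

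Median centring moved the median of all probe sets with pioglitazone from -0.08 to 0.06, and the members' median from -0.13 to 0.05; the members' troglitazone median went from -0.14 to -0.05, and to -0.07 with quantile normalisation. Single arrays moved the members' median too: with pioglitazone to -0.21 or -0.05 without its replicate 1 or 2, with rosiglitazone to -0.08 without vehicle replicate 2 and -0.10 without its own replicate 1, and with troglitazone to -0.25 or -0.08 without its replicate 1 or 2. The share of all calls that were higher with pioglitazone, 69.8%, became 48.8% with quantile normalisation and 87.2% with median centring; with troglitazone 58.3% became 70.1% with the latter. On arrays the signal over background limits what can be seen: 21.3% of member values lay at the floor, so falls of dim members are understated.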

Other observations

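Beside the members, 15 probe sets name several genes of which at least 1 has a member's symbol, and 13 of them were tested. The one that passed names H2-T23 and H2-T-ps, of the H2-T region of non-classical class I. Its signal was 388, 285 and 929 with vehicle, 216 and 152 with pioglitazone, 29.6, 36.4 and 69.3 with rosiglitazone and 84.9, 122 and 142 with troglitazone. All 8 drug arrays lay under vehicle, and the 3 rosiglitazone arrays lay under the floor, so the fall with that drug was at least 6.35-fold (log2 -2.67, limma adjusted p = 0.0216). With troglitazone the log2 fold change was -2.04 (adjusted p = 0.105) and with pioglitazone -1.15 (adjusted p = 0.604), and the mean of the drugs passed (adjusted p = 0.0356). The rosiglitazone call was lost without vehicle replicate 1 or 4, or without rosiglitazone replicate 1, 2 or 4, with adjusted p up to 0.154, and that of the mean without any 1 array, up to 0.207. The rosiglitazone call also ended with a floor at the 50th percentile (log2 -1.17, adjusted p = 0.0819), without the set term (0.074), with set 1 alone (0.258), without the intensity trend (0.052), in a fit of only the groups compared (0.225) and without the 2 arrays that stand apart (0.121). That of the mean was lost with quantile normalisation (0.0692), median centring (0.0542), no set term (0.081), set 1 alone (0.316) and without the same 2 arrays (0.1). The other 12 tested did not pass with any drug.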
